A study of Mus musculus with 9 samples.

Results

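A set of 127 genes, of the 55487 gene identifiers counted, lost most of their RNA in both kinds of C/EBPδ-edited macrophages. The members were chosen on measured values. Counts were divided by the total on genes of each library and scaled to CPM, the usual unit that makes libraries of unequal depth comparable, and a gene was taken when its mean reached 2 CPM in wild-type macrophages and its mean in knock-out and in ΔTAD macrophages was each at most 25% of the wild-type mean. Of the 11515 genes with a wild-type mean of 2 CPM or more, 127 met this rule after 7 genes had been left out by name. The levels of the members against wild-type macrophages were therefore fixed by the choice and are given as a description, without a test.

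RNA came from unstimulated RAW264.7 cells, a mouse macrophage line, in 3 libraries per genotype. Wild-type cells carried unedited Cebpd. ΔTAD cells, labelled CEBPD TAD mutant, carried a CRISPR/Cas9 deletion that removed the transactivation domain of C/EBPδ in frame. Knock-out cells, labelled CEBPD KO, came from the same editing and carried an out-of-frame deletion. Edited cells were expanded from single cells, and the series describes 3 independent clones without stating whether each library of each genotype is a clone of its own, so that the spread between the libraries of a genotype may be technical.

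Libraries held 16113306 to 20981829 counts on genes. The floor was taken as 3 counts per library, which was 0.143 to 0.186 CPM, and intervals computed from counts cover counting error only. Of 10 macrophage markers, 9 exceeded 1 CPM in wild-type macrophages, and their summed level was 3375 to 3571 CPM in wild-type, 4438 to 4823 CPM in knock-out and 6178 to 7034 CPM in ΔTAD libraries. Mertk, the remaining marker, had at most 3 counts in every library. All markers of B cells, of T and NK cells, of fibroblasts, of epithelial cells and of erythroid cells were at 3 counts or fewer throughout. So were 4 of 5 markers of neutrophils and granulocyte precursors, while S100a8 had a wild-type mean of 1.09 CPM. Of 5 dendritic cell markers 3 were at 3 counts or fewer throughout, and Zbtb46 had a wild-type mean of 1.15 CPM. The 5 endothelial markers summed to 0.772 to 1.53 CPM in wild-type, 0.115 to 0.268 CPM in knock-out and 0 to 0.186 CPM in ΔTAD libraries, with 3 of 5 at or under the floor in every library, and their part in the losses was not tested. One library, ΔTAD replicate 1, stood apart: its 10 most abundant genes took 15.8% of the counts, against 5.29% to 6.83% in the other libraries, and its TMM scaling factor was 0.888. Cebpd itself had 70 to 130 counts per library, and as the deletions spare most of its transcript, its level does not check the labels.

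C/EBPδ is a basic leucine zipper factor. It binds DNA as a dimer, its transactivation domain recruits coactivators, and its zipper also allows pairing with other C/EBP proteins. In macrophages it is best known as an early response factor after stimulation through Toll-like receptors, and it takes part in the induction of cytokine, chemokine and prostaglandin synthesis genes.

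Sequence was not used to choose the members. The stretch upstream of the transcription start was available from RefSeq (GRCm38.p6) for 91 of the 127 genes, as 250 bases before to 50 bases after each start. A C/EBP site reads in its symmetric form TTGCGCAA, and a looser match, TTGCNNAA on either strand, was searched together with it. Windows of 4 members with such a match are shown first. All members lost RNA by the rule, and the part of the match in the loss was not tested. These 4 are not the best expressed of the members with a match. Plcb2, the best expressed with 91.5 CPM in wild-type macrophages, also holds a match and is not shown. Rhox5, which is better expressed than the 4 as well, is not shown because its RefSeq start lies 50234 bases from its GENCODE start. In each line the 80 bases are written along the strand of the gene and the match is in capitals.

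Ptgs2: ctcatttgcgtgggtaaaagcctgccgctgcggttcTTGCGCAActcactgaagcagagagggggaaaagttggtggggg
Hao1: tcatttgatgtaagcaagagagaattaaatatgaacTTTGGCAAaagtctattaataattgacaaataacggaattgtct
Ptgs2os2: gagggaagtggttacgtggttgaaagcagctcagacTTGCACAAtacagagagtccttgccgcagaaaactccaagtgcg
Ifi213: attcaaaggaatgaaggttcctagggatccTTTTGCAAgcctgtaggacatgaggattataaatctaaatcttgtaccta

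The window of Ptgs2, the inducible cyclooxygenase, is chr1:150099926-150100005 on the plus strand. Its match is the fully symmetric TTGCGCAA and starts 69 bases before the transcription start. Among the members with a promoter entry, Ptgs2 alone held this symmetric form. The window of Hao1, a peroxisomal hydroxyacid oxidase, is chr2:134554395-134554474 on the minus strand, with the match 86 bases before the start. Ptgs2os2, a noncoding gene 64.9 kb from Ptgs2, has its window at chr1:150165023-150165102 on the minus strand, with the match 118 bases before the start. The window of Ifi213, of the interferon-inducible p200 family, is chr1:173599443-173599522 on the minus strand, with the match 220 bases before the start.

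Over the whole set, TTGCNNAA was found in 11 of 91 promoters (12.1%, 95% Wilson interval 6.89% to 20.4%). Of all 27025 promoters of this length 10.7% held it, and of the 9189 promoters of genes tested here 7.99% did. The interval of the members covers both shares. A CCAAT box was present in 29.7% of the members' promoters (21.3% to 39.7%), in 37.9% of all promoters and in 39.5% of those of tested genes. The AP-1 letters TGANTCA were in 9.89% of the members' promoters (5.29% to 17.7%), against 7.87% of all and 4.68% of tested genes. The ETS letters GAGGAAGT were in 4.40% (1.72% to 10.8%), against 3.27% and 3.31%. TATAAA was in 9.89% (5.29% to 17.7%), which is below the 14.2% of all promoters and above the 6.70% of tested genes. The motifs were read on both strands, and none of them contains another except that TTGCGCAA is a case of TTGCNNAA.

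The clearest difference in sequence was in CpG content. A ratio of observed to predicted CpG of at least 0.6, a usual mark of a CpG island, was reached by 38 of the 91 promoters of members (41.8%, 95% Wilson interval 32.2% to 52.0%). Of the promoters of tested genes 74.9% reached it (74.0% to 75.7%), and of all promoters 36.7% (36.1% to 37.2%). The median ratio was 0.510 in members, 0.781 in tested genes and 0.390 in all promoters. The members thus lay near the whole genome and below the genes expressed in these cells, and the direction of the difference turns on which of these is taken as the reference. Wild-type level differs with it: the median of the members was 5.19 CPM and that of all tested genes 22.2 CPM, and the part of level in the CpG content was not tested.

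**Figure D1:**
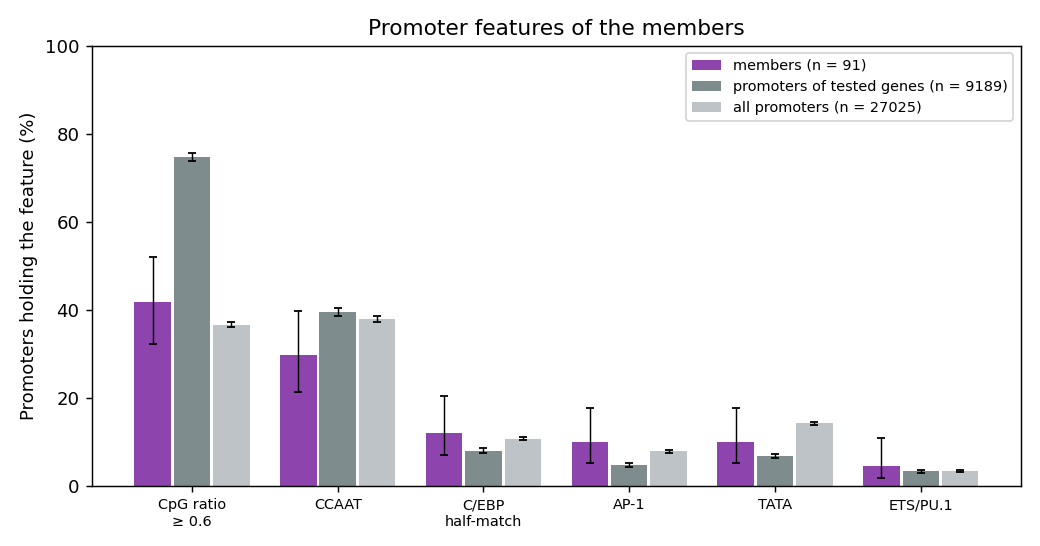
Share of promoters (percent, y axis) that reach a CpG ratio of 0.6 or hold each motif (x axis: CCAAT, TTGCNNAA as C/EBP half-match, TGANTCA as AP-1, TATAAA, GAGGAAGT as ETS/PU.1), for 91 members, 9189 tested genes and all 27025 promoters, with 95% Wilson intervals as bars. The members' CpG share of 41.8% lies near the 36.7% of all promoters and below the 74.9% of tested genes, while for TTGCNNAA the members' interval covers both backgrounds.

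The set was made up mainly of weakly to moderately expressed genes. By wild-type mean, 60 members lay between 2 and 5 CPM, 26 between 5 and 10, 20 between 10 and 20, 17 between 20 and 100, and 4 above 100 CPM. The members' summed level was 3905 to 3941 CPM in wild-type, 358 to 369 CPM in knock-out and 412 to 485 CPM in ΔTAD libraries, and 1 gene, Aplp2, made up the larger part of it. Of the 127 members, 126 or 127 were above the floor in each wild-type library, 67 to 73 in each knock-out library and 87 to 95 in each ΔTAD library. In bulk RNA, fewer cells with a transcript and less transcript per cell cannot be told apart.

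The level left in knock-out macrophages ranged from 0 to 24.8% of the wild-type mean, with a median of 5.39%, or 5.98% when genes at 0 are set to the floor. In ΔTAD macrophages it ranged from 0 to 24.5%, with a median of 8.07%. Wild-type libraries were close to each other, the highest at less than 2 times the lowest in 123 members. In 125 members (98.4%) every edited library lay below every wild-type library, where 23.2% of all tested genes do so, and this count follows from the rule. The remaining members were the processed pseudogenes Gm10293, with 15, 173 and 24 wild-type counts, and Gm4575, with 0, 139 and 2, both of which owe their place to wild-type replicate 2. Without that library neither met the rule.

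Among tested genes 22.4% were called lower in knock-out than in wild-type macrophages and 23.4% lower in ΔTAD than in wild-type macrophages (edgeR, adjusted p under 0.01), and all 126 members that entered the test were called in both. The rule used these contrasts, so nothing is read from the counts. The members' median log2 fold change was −4.18 for knock-out and −3.45 for ΔTAD, beside −0.00 for both over all tested genes. Gm4575 was not tested.

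**Figure D2:**
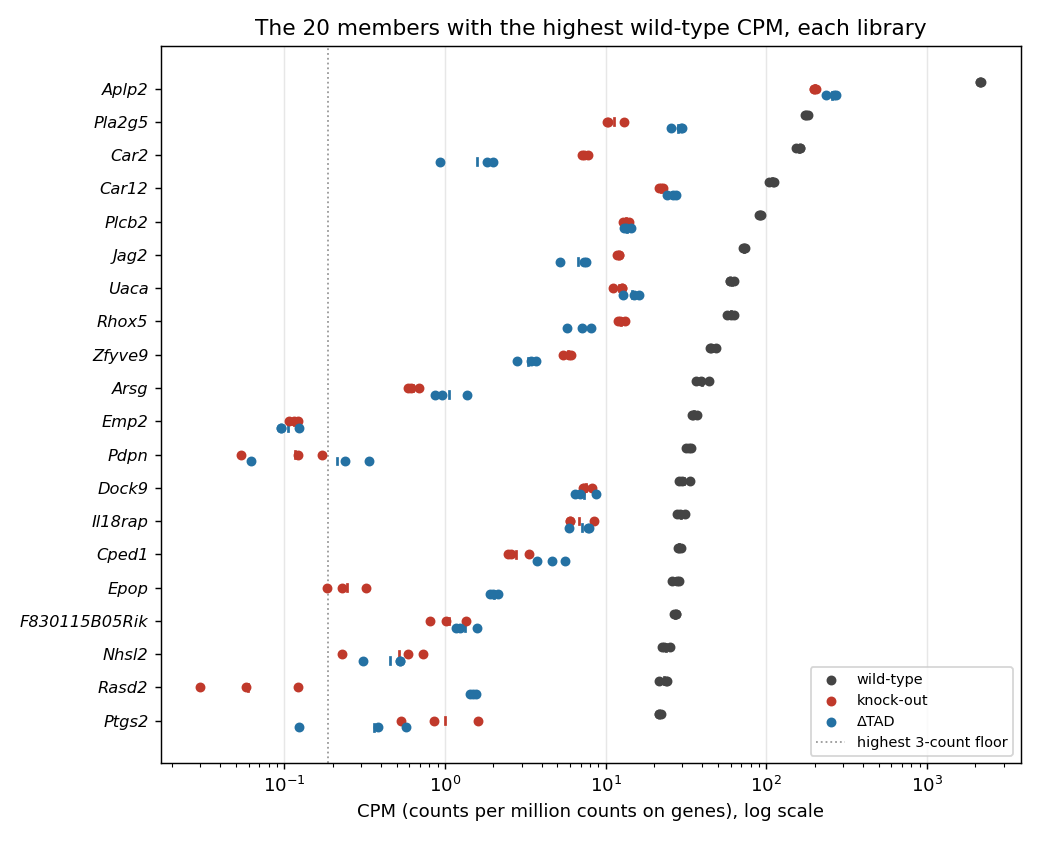
CPM on a log scale (x axis) of the 20 members with the highest wild-type mean (y axis), 1 point per library and a tick at the mean of each genotype. The dotted line is the highest floor of 3 counts, a library at 0 is drawn at the left end, and in all 20 genes the 3 wild-type points lie to the right of all 6 edited points.

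Pla2g5, Ptgs1 and Ptgs2, members described first, act in fatty acid release and prostaglandin synthesis. Pla2g5 (ENSMUSG00000041193), a secreted phospholipase that frees fatty acids such as arachidonic acid from membranes, had 182, 176 and 175 CPM in the wild-type libraries. It had 10.2, 10.4 and 13.0 CPM in the knock-out and 25.4, 30.1 and 29.6 CPM in the ΔTAD libraries. The genotypes did not overlap, and 6.30% of the wild-type level was left in knock-out and 16.0% in ΔTAD macrophages.

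Ptgs2 (ENSMUSG00000032487), whose promoter holds the symmetric C/EBP sequence printed above, had 21.4, 21.4 and 22.1 CPM in wild-type, 0.535, 0.856 and 1.61 CPM in knock-out and 0.124, 0.383 and 0.572 CPM in ΔTAD libraries. It was 21.7-fold lower in knock-out and 60.2-fold lower in ΔTAD macrophages. The edited genotypes overlapped, with the lowest knock-out library at 0.535 CPM and the highest ΔTAD library at 0.572 CPM. Ptgs2os2, its noncoding neighbour, had 189, 177 and 170 counts in wild-type, 24, 25 and 22 in knock-out and 13, 22 and 19 in ΔTAD libraries. Its decline was smaller than that of Ptgs2, to 13.3% and 9.02% of the wild-type level. Ptgs1, the constitutive cyclooxygenase, lies on another chromosome and had 147, 148 and 130 counts in wild-type, 10, 4 and 11 in knock-out and 9, 29 and 29 in ΔTAD libraries. Both cyclooxygenases were thus at 5.80% of the wild-type level or less in knock-out macrophages, but Ptgs1 kept 13.7% in ΔTAD macrophages where Ptgs2 kept 1.66%.

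Further members act on lipids. Faah, which breaks down the fatty acid amide anandamide, had 211, 190 and 167 counts in wild-type, 7, 14 and 13 in knock-out and 36, 41 and 69 in ΔTAD libraries. Elovl4, an elongase of very long fatty acids, had 5.14, 5.28 and 7.01 CPM in wild-type libraries. It had 1 count over the knock-out libraries, which is 285-fold lower (95% exact counting interval 53.8 to 11973), and 3, 3 and 2 counts in ΔTAD libraries. Hacd1, a dehydratase of the same elongation cycle, was less depleted, with 8.86% left in knock-out and 19.0% in ΔTAD macrophages. Acot4, an acyl-CoA thioesterase, had 1 count in all knock-out libraries together and 14 in ΔTAD libraries, against 82, 68 and 56 in the wild-type libraries. Ffar4, a cell surface receptor for long-chain fatty acids, had 78, 73 and 54 wild-type counts, of which 2.99% and 6.77% of the level were left. Cyp4f18, a cytochrome of the family that hydroxylates leukotriene B, was low already in wild-type libraries, at 62, 24 and 41 counts, and did not exceed 2 counts in any edited library. Its gene overlaps Zfp961, which has a higher wild-type level, so its counts are less certain. Stard10, a lipid transfer protein, kept 16.4% and 15.9%.

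Of 141 tested genes with symbols of lipid metabolism, 9 were members (6.38%), beside 126 of 14312 (0.880%) over all tested genes. This list was built from symbol patterns and also took in Apold1 and the noncoding Ptgs2os2, while Faah, Hacd1 and Ffar4 are not on it. The list as a whole did not go down. In knock-out macrophages 36 of its genes were called lower and 53 higher (median log2 value 0.05), where 22.4% of all tested genes were lower and 22.8% higher. In ΔTAD macrophages 31 were lower and 74 higher (median 0.21), where 23.4% of all tested genes were lower and 26.3% higher.

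A block of 4 neighbouring TREM receptor genes on chromosome 17 met the rule. The depth of the loss differed between them. Log2 fold changes ran from −3.13 (Treml4) to −5.63 (Trem1) in knock-out macrophages. In ΔTAD macrophages they ran from −2.54 (Treml2) to −4.32 (Trem1), and a joint loss was not tested. TREM proteins are immunoglobulin-type receptors of myeloid cells, several of which signal through the adaptor DAP12 and amplify or dampen responses to microbial products. Trem1, Trem3, Treml4 and Treml2 follow each other within 66.7 kb on the plus strand. For Trem1 and Treml4, the members of this block with a promoter entry, the last 120 bases before the start are printed without capitals, as they hold no TTGCNNAA.

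Trem1: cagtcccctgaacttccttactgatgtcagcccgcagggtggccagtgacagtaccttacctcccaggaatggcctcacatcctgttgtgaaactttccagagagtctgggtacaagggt
Treml4: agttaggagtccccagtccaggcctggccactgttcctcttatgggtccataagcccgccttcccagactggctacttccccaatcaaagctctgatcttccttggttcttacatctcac

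These are chr17:48232619-48232738 and chr17:48264175-48264294 of GRCm38.p6, both on the plus strand. Trem1, an amplifier of inflammatory signalling, had 80, 70 and 68 counts in wild-type, 1, 2 and 1 in knock-out and 3, 5 and 3 in ΔTAD libraries. Trem3, a related activating receptor and the most abundant of the block at 12.2 ± 0.406 CPM (SD, n = 3), had 0.642, 0.673 and 0.976 CPM in knock-out and 0.372, 1.20 and 0.667 CPM in ΔTAD libraries. Treml4 had 109, 84 and 94 counts in wild-type, 9, 8 and 15 in knock-out and 2, 11 and 10 in ΔTAD libraries. Each of these genes had its edited libraries below all wild-type libraries. Treml2 had 88, 61 and 65 counts in wild-type, 7, 1 and 9 in knock-out and 8, 11 and 19 in ΔTAD libraries. Knock-out and ΔTAD libraries overlapped for Trem3, Treml4 and Treml2 and not for Trem1, and none of the 4 was called between these genotypes.

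The loss stopped further along the same stretch. B430306N03Rik, 83.4 kb from the start of Trem1 and not a member because of its low level, was counted 30, 32 and 12 times in wild-type, 7 times in each knock-out library and 4, 3 and 1 times in ΔTAD libraries. Trem2, 114 kb from Trem1, went the other way: from 182 ± 5.69 CPM in wild-type libraries it rose to 346 ± 10.6 CPM with the knock-out and 377 ± 28.5 CPM with the ΔTAD deletion (SD, n = 3 each). The change was 0.94 on the log2 scale for knock-out (standard error 0.0371, edgeR adjusted p = 1.36e-16) and 1.14 for ΔTAD (standard error 0.0371, edgeR adjusted p = 2.53e-18). Treml1, the next gene, rose in knock-out macrophages (log2 fold change 1.05, standard error 0.241, edgeR adjusted p = 0.000644). For ΔTAD its value was 0.73 (edgeR adjusted p = 0.0145), which misses the threshold of 0.01. The whole of chromosome 17 leaned upward, with medians over its tested genes of 0.48 (knock-out) and 0.50 (ΔTAD) on the same scale, so Trem2 exceeded that shift while the block beside it lay far below it. The part of the shift of chromosome 17 in these values was not tested.

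**Figure D3:**
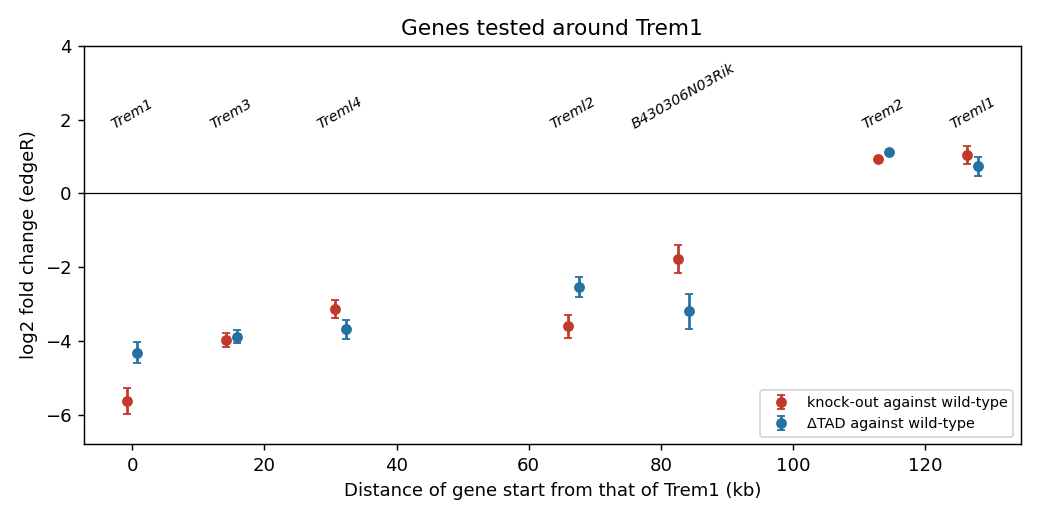
Log2 fold change from edgeR with its standard error (y axis) of the tested genes around Trem1, by distance of the gene start from that of Trem1 in kb (x axis), for knock-out and ΔTAD against wild-type macrophages. The first 5 genes lie between −1.78 and −5.63 and the last 2, Trem2 and Treml1, between 0.73 and 1.14.

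Other immune receptors and their ligands were scattered over the genome. Il18rap, the accessory chain of an interleukin receptor, had 27.6, 31.3 and 29.2 CPM in wild-type, 5.99, 5.99 and 8.50 CPM in knock-out and 5.96, 7.72 and 7.86 CPM in ΔTAD libraries. It lies just inside the rule, at 23.3% and 24.5% of the wild-type level, and left the set when wild-type replicate 2 or ΔTAD replicate 1 was dropped. Tarm1, an activating receptor of myeloid cells, was lost much further, with 5.39, 4.93 and 4.47 CPM in wild-type, 0.268, 0.0611 and 0.172 CPM in knock-out and 0.124, 0.0959 and 0.0477 CPM in ΔTAD libraries. Sigirr, an inhibitory member of the interleukin receptor family, kept 14.0% and 9.12%. Ltb, which encodes lymphotoxin beta, kept 15.1% and 19.4% of its wild-type level of 16.9 ± 0.649 CPM (SD, n = 3). Tyro3, a receptor kinase that takes part in the uptake of dying cells, kept 11.4% and 20.7%. Clec2l, a C-type lectin-like gene, kept 12.3% and 5.75%.

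On the list of immune surface receptors, 5 of 94 tested genes were members (5.32%, beside 0.880% of all tested genes), of which 4 are the TREM block. The list as a whole leaned upward, with 24 genes called lower and 45 higher in knock-out macrophages and 27 lower and 49 higher in ΔTAD macrophages. On the list of cytokines, chemokines and their receptors, built from symbol patterns, Il18rap was the member among 95 tested genes (1.05%, beside 0.880% of all tested genes), since the patterns do not hold Ltb and Sigirr. The list had 18 lower and 39 higher in knock-out and 25 lower and 45 higher in ΔTAD macrophages. Over all tested genes 22.4% were lower and 22.8% higher in knock-out, and 23.4% lower and 26.3% higher in ΔTAD macrophages.

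Members outside these lists of immune genes include other receptors and ligands. Ephb4, an ephrin receptor, had 228, 195 and 195 counts in wild-type, 0, 3 and 4 in knock-out and 6, 2 and 8 in ΔTAD libraries. Npr1, the receptor of atrial natriuretic peptide, kept 14.4% of its wild-type level in knock-out and 17.4% in ΔTAD macrophages. Among ligands, Mst1, which encodes macrophage-stimulating protein, had 341, 252 and 253 counts in wild-type, 4, 8 and 7 in knock-out and 33, 44 and 38 in ΔTAD libraries. Mst1 overlaps Rnf123, a more abundant gene, so reads of the latter could enter its count. Jag2, a ligand of Notch receptors on chromosome 12, had 73.7, 71.4 and 72.9 CPM in wild-type, 12.0, 11.8 and 12.1 CPM in knock-out and 5.21, 7.33 and 7.53 CPM in ΔTAD libraries. More of it was left in knock-out than in ΔTAD macrophages, at 16.5% and 9.21%. On chromosome 12, which holds 7 members, the medians over all tested genes were −0.52 (knock-out) and −0.54 (ΔTAD) on the log2 scale.

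A pair of carbonic anhydrases, which interconvert carbon dioxide and bicarbonate, were among the 4 most abundant members. Car2 (ENSMUSG00000027562), the cytosolic enzyme, had 154, 162 and 161 CPM in wild-type libraries. It had 7.17, 7.77 and 7.35 CPM in knock-out and 0.931, 1.82 and 2.00 CPM in ΔTAD libraries, so it was 21.4-fold lower in the former and 100.4-fold lower in the latter. Car12, the membrane-bound enzyme, had 2046, 1875 and 1774 counts in wild-type, 411, 351 and 398 in knock-out and 386, 548 and 579 in ΔTAD libraries, and with 20.4% and 23.9% left it was close to the limit of the rule in both. Per kb of exon the wild-type level was 65.7 CPM for Car2 and 14.3 CPM for Car12.

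Of the ion and solute transporters, Slc9b1, a sodium/proton exchanger, had 328, 314 and 321 counts in wild-type libraries and 0, 2 and 0 in knock-out libraries, 452-fold lower (95% exact counting interval 133 to 3970.4), and 0, 1 and 6 in ΔTAD libraries, 165-fold lower (95% exact counting interval 73.3 to 378). Slc4a5, a sodium bicarbonate cotransporter, had 50, 57 and 46 counts in wild-type libraries, 1 count over the knock-out libraries and none in ΔTAD libraries, where it was at least 18.6-fold lower. Slc5a1, a sodium glucose cotransporter, had 54, 36 and 38 counts in wild-type, 0, 0 and 1 in knock-out and 2, 10 and 4 in ΔTAD libraries. In Slc4a5 every edited library was under the floor, and in Slc9b1 and Slc5a1 every knock-out library was. Kcne3, a potassium channel subunit, kept 3.78% and 3.93%, and Abca5, an ATP-binding cassette transporter, kept 1.24% and 15.8%. Slc35g3 had no count in knock-out libraries and at most 2 in a ΔTAD library. Of 323 tested transporters and channels these 6 were members (1.86%, beside 0.880% of all tested genes). In knock-out macrophages 81 of the list were called lower and 117 higher, where 22.4% and 22.8% of all tested genes were. In ΔTAD macrophages 78 were lower and 126 higher, where 23.4% and 26.3% of all tested genes were.

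Further members regulate small GTPases or the actin cytoskeleton. Dock9, an exchange factor for Cdc42, lay just inside the rule with 24.8% and 24.1% left, and left the set when wild-type replicate 3, knock-out replicate 2 or 3 or ΔTAD replicate 2 was dropped. Rasal3, a GTPase-activating protein for Ras, had 326, 261 and 242 counts in wild-type, 0, 0 and 0 in knock-out and 12, 17 and 20 in ΔTAD libraries, at least 91.3-fold lower in knock-out and 18.7-fold lower in ΔTAD macrophages. Arhgap26, another GTPase-activating protein, had 367, 290 and 238 counts in wild-type, 1, 1 and 1 in knock-out and 24, 27 and 26 in ΔTAD libraries. In both genes the knock-out libraries were at or under 1 count and all ΔTAD libraries were clearly above the floor. Rasd2, a small GTPase, behaved likewise, with 0, 2 and 1 counts in knock-out and 25, 31 and 30 in ΔTAD libraries against 423, 406 and 382 in wild-type libraries. Rasgrf2, an exchange factor for Ras, kept 4.74% and 8.05%. Rab15, a GTPase of membrane traffic, kept 3.34% and 20.6%, and Tbc1d9, a Rab GTPase-activating protein, had at most 3 counts in any edited library. Rragd, a GTPase that regulates mTOR signalling at the lysosome, had no count in knock-out libraries and 2, 11 and 2 in ΔTAD libraries. Scin, an actin-severing protein, and Nck2, an adaptor to the actin machinery, had at most 3 counts in every edited library. On the list of small GTPases and their regulators, 6 of 194 tested genes were members (3.09%, beside 0.880% of all tested genes). Rhox5, a homeobox gene, is among them by symbol alone. The list had 40 genes called lower and 83 higher in knock-out, where 22.4% and 22.8% of all tested genes were. In ΔTAD macrophages 37 were lower and 89 higher, where 23.4% and 26.3% of all tested genes were.

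Signalling enzymes outside this group included Plcb2, a phospholipase C that acts below G protein-coupled receptors, with 90.6, 91.7 and 92.1 CPM in wild-type, 14.0, 12.9 and 13.4 CPM in knock-out and 13.3, 14.5 and 13.1 CPM in ΔTAD libraries. Ptpn5, a tyrosine phosphatase, had 389, 337 and 301 counts in wild-type, 9, 6 and 9 in knock-out and 2, 9 and 7 in ΔTAD libraries. Zfyve9, an anchor of SMAD proteins at endosomes, kept 12.6% and 7.15%, and Stk39, a kinase that regulates ion cotransporters, kept 0.584% and 5.01%. Nedd4l, a ubiquitin ligase, kept 12.8% and 4.14%. Kinases and phosphatases gave 4 members of 265 tested genes (1.51%), with 64 called lower and 90 higher in knock-out and 58 lower and 40.4% of the list higher in ΔTAD macrophages. Ubiquitin ligases and deubiquitinases gave 2 of 290 (0.690%), Nedd4l and Klhl30, with 57 lower and 88 higher in knock-out and 65 lower and 95 higher in ΔTAD macrophages. For both lists the share of members over all tested genes is 0.880%. The shares of all tested genes called lower and higher are 22.4% and 22.8% in knock-out and 23.4% and 26.3% in ΔTAD macrophages.

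Some members encode transcription factors. Rhox5, a homeobox gene of the X chromosome, had a wild-type mean of 60.1 ± 3.07 CPM (SD, n = 3), and its level was 13.2, 12.2 and 11.9 CPM in knock-out and 5.77, 7.09 and 8.10 CPM in ΔTAD libraries. Tbx20, a T-box factor of heart development, had 162, 176 and 156 counts in wild-type, 1, 2 and 0 in knock-out and 5, 7 and 7 in ΔTAD libraries. Shox2, a homeobox factor of limb and heart, had 5.75, 6.17 and 6.27 CPM in wild-type, 0.428, 0.183 and 0.115 CPM in knock-out and 0.310, 0.192 and 0.191 CPM in ΔTAD libraries. In these genes every edited library was far below every wild-type library. Zic5, a zinc finger factor of neural development, had 96, 90 and 68 counts in wild-type libraries, none in knock-out and 4, 3 and 3 in ΔTAD libraries. Zfp11, a zinc finger gene, had 87, 93 and 83 counts in wild-type libraries, none in knock-out and 10, 11 and 11 in ΔTAD libraries. By symbol, 2 of 507 tested DNA-binding factors were members (0.394%, beside 0.880% of all tested genes), Tbx20 and Zfp11. Of this list 80 were called lower and 141 higher in knock-out, where 22.4% and 22.8% of all tested genes were. In ΔTAD macrophages 142 were lower and 20.3% of the list higher, where 23.4% and 26.3% of all tested genes were.

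Among membrane and secreted proteins Aplp2 (ENSMUSG00000031996), of the amyloid precursor family, was the most abundant member. It had 42144, 36094 and 35164 counts in wild-type, 3716, 3234 and 3548 in knock-out and 3800, 5508 and 5724 in ΔTAD libraries, 10.8-fold and 8.37-fold lower in CPM. Emp2, a tetraspan membrane protein, had 674, 623 and 567 counts in wild-type libraries and exactly 2 counts in each of the 6 edited libraries. It was 309-fold lower in knock-out (95% exact counting interval 142 to 845) and 338-fold lower in ΔTAD macrophages (95% exact counting interval 157 to 934). Pdpn, the membrane mucin podoplanin, had 646, 571 and 513 counts in wild-type, 1, 2 and 3 in knock-out and 1, 7 and 5 in ΔTAD libraries. Emp2 and Pdpn were thus the deepest losses among the 20 most abundant members in ΔTAD macrophages. Arsg, a lysosomal sulfatase, had 766, 737 and 590 counts in wild-type, 11, 10 and 12 in knock-out and 22, 18 and 20 in ΔTAD libraries, and it overlaps the more abundant Slc16a6. Gja1, the gap junction protein connexin, kept 1.56% and 3.99%. Clu, a secreted chaperone, kept 13.0% and 15.5%. Alpl, tissue-nonspecific alkaline phosphatase, had 93, 76 and 48 counts in wild-type libraries, none in knock-out libraries (at least 23.7-fold lower) and 1 count over the ΔTAD libraries (256-fold lower, 95% exact counting interval 42.5 to 9485). Itga6, a laminin-binding integrin chain, kept 20.2% and 7.54%. It was the single member of 66 tested adhesion and matrix genes (1.52%, beside 0.880% of all tested genes). Of these 21 were lower and 22 higher in knock-out, where 22.4% and 22.8% of all tested genes were. In ΔTAD macrophages 20 were lower and 20 higher, where 23.4% and 26.3% of all tested genes were.

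Of 77 tested proteases and their inhibitors 3 were members (3.90%, beside 0.880% of all tested genes). Qpct, glutaminyl cyclase, which modifies the ends of secreted peptides and is on the list by its symbol, had 67, 61 and 50 counts in wild-type libraries, 1 count over the knock-out libraries and none in ΔTAD libraries, where it was at least 21.4-fold lower. Adam3 had 50, 50 and 39 counts in wild-type libraries and 1 count over all edited libraries. Cpe, a carboxypeptidase, kept 19.3% and 8.07%. The list had 19 genes called lower and 33 higher in knock-out, where 22.4% and 22.8% of all tested genes were. In ΔTAD macrophages 20 were lower and 33 higher, where 23.4% and 26.3% of all tested genes were.

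By annotation 109 of the 127 members were protein coding (85.8%, beside 77.0% of tested genes). The 18 others were 8 lincRNAs, 3 processed pseudogenes, 2 antisense and 2 processed transcripts, 1 bidirectional promoter transcript and 2 of the class TEC. F830115B05Rik was the most abundant of them, at 27.2, 27.5 and 26.6 CPM in the wild-type libraries, with 3.89% and 4.92% left, and it overlaps the more abundant 2900026A02Rik. Of all members 59 overlap another annotated gene, 27 on the same strand and 47 on the other, and 12 overlap a gene with a higher wild-type level. The strand setting of the counting is not given in the sources used here, so reads of such pairs cannot be assigned with certainty.

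The difference between knock-out and ΔTAD macrophages was not part of the rule and was tested with edgeR over all 14312 genes. Of the 126 members tested, 36 (28.6%) were called lower in knock-out than in ΔTAD macrophages, where 19.1% of all tested genes were, and 6 (4.76%) were called higher, where 13.9% were. Some of the 126 passed the filter on low counts through the wild-type libraries alone. With only the 2 edited genotypes in the model 57 members were tested, of which 21 were called lower and 6 higher. With 10 or more counts required in at least 6 libraries, 23 of 65 were lower and 6 higher. The shares over all genes were not taken in these 2 fits, and the 19.1% and 13.9% are not their reference. The median log2 fold change of knock-out against ΔTAD was −0.57 in the members and −0.03 over all tested genes. Because the rule caps both genotypes at 25% of wild-type, and 17 members were at 3 counts or fewer in every edited library, the depth could not show a difference in all of them. After TMM scaling every knock-out library lay below every ΔTAD library in 53 members (42.1%), beside 29.6% of tested genes, and above in 13 (10.3%), beside 23.1%. At an adjusted p under 0.05, 45 members were lower (25.6% of all tested genes) and 10 higher (19.7%).

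The genes lower in knock-out macrophages with the largest fitted differences were Wwc2, Rasal3, Zfp11, Svil and Sept3. Svil, the actin-binding protein supervillin, had 20.8, 18.6 and 20.1 CPM in wild-type, 0.107, 0 and 0.0574 CPM in knock-out and 3.72, 4.89 and 5.15 CPM in ΔTAD libraries. It was thus nearly absent in one edited genotype and at 23.1% in the other, with a log2 fold change of −6.25 (standard error 0.347, edgeR adjusted p = 4.35e-13), and without ΔTAD replicate 1 it no longer met the rule. Wwc2, a scaffold protein of Hippo signalling, had 368, 358 and 324 counts in wild-type, 0, 0 and 0 in knock-out and 13, 21 and 18 in ΔTAD libraries. It was lower by at least 116-fold in knock-out than in wild-type and at least 5.18-fold higher in ΔTAD than in knock-out macrophages (edgeR adjusted p = 2.81e-07). Rasal3, given above, was at least 4.87-fold higher in ΔTAD than in knock-out macrophages (edgeR adjusted p = 3.64e-07), and Zfp11 at least 3.24-fold (edgeR adjusted p = 1.05e-05). Sept3, a septin, had 241, 212 and 231 counts in wild-type, 0, 0 and 0 in knock-out and 5, 7 and 11 in ΔTAD libraries, at least 2.27-fold higher in ΔTAD than in knock-out macrophages (edgeR adjusted p = 7.67e-05). These bounds are against 3 counts per library, and the fitted log2 values of the 4 genes at 0 are not bounds and are left out.

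In the abundant members Pla2g5, Aplp2 and Car12 the difference was smaller but well resolved. Other abundant members hardly differed. Knock-out and ΔTAD libraries overlapped for Plcb2. Mean CPM in knock-out and ΔTAD macrophages was 7.58 and 7.36 for Dock9 and 6.83 and 7.18 for Il18rap. Pla2g5 was lower in knock-out than in ΔTAD macrophages by a log2 fold change of −1.42 (standard error 0.0689, edgeR adjusted p = 3.23e-14). For Aplp2 the log2 fold change was −0.44 (standard error 0.0284, edgeR adjusted p = 8.59e-12) and for Car12 −0.30 (standard error 0.0555, edgeR adjusted p = 9.36e-05). The less abundant Ptgs1 (−1.33, edgeR adjusted p = 0.00345), Faah (−2.01, edgeR adjusted p = 2.27e-06), Hacd1 (−1.21, edgeR adjusted p = 0.0022) and Acot4 (−3.32, edgeR adjusted p = 0.00437) were lower in knock-out as well. Ptgs2 was not called (1.31, standard error 0.409, edgeR adjusted p = 0.0117). Of the 141 genes of the whole lipid list 49 were lower and 12 higher in knock-out than in ΔTAD macrophages, where 19.1% and 13.9% of all tested genes were.

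The 6 members higher in knock-out than in ΔTAD macrophages were Epha2, Car2, E230001N04Rik, Zfyve9, Jag2 and Rhox5. Epha2, an ephrin receptor, had 87, 72 and 94 counts in wild-type, 13, 16 and 10 in knock-out and 1, 2 and 1 in ΔTAD libraries, and it was the single member above the floor in every knock-out library and at or under it in every ΔTAD library. Its log2 fold change was 3.25 (standard error 0.552, edgeR adjusted p = 4.30e-05). Car2 differed by 2.11 (standard error 0.142, edgeR adjusted p = 1.63e-11), opposite to Car12, and by 1.96 without ΔTAD replicate 1. Jag2 differed by 0.75 (standard error 0.0922, edgeR adjusted p = 5.45e-07), Zfyve9 by 0.75 (standard error 0.134, edgeR adjusted p = 7.59e-05) and Rhox5 by 0.75 (standard error 0.0965, edgeR adjusted p = 1.08e-06). The lincRNA E230001N04Rik, with 14, 18 and 24 counts in knock-out and 8, 5 and 10 in ΔTAD libraries, differed by 1.35 (edgeR adjusted p = 0.00384), and the call was lost without knock-out replicate 2 (adjusted p = 0.0120), knock-out replicate 3 (0.0307) or ΔTAD replicate 2 (0.0357). Without ΔTAD replicate 1, the library that stood apart, 29 members were called lower and 6 higher in knock-out macrophages.

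**Figure D4:**
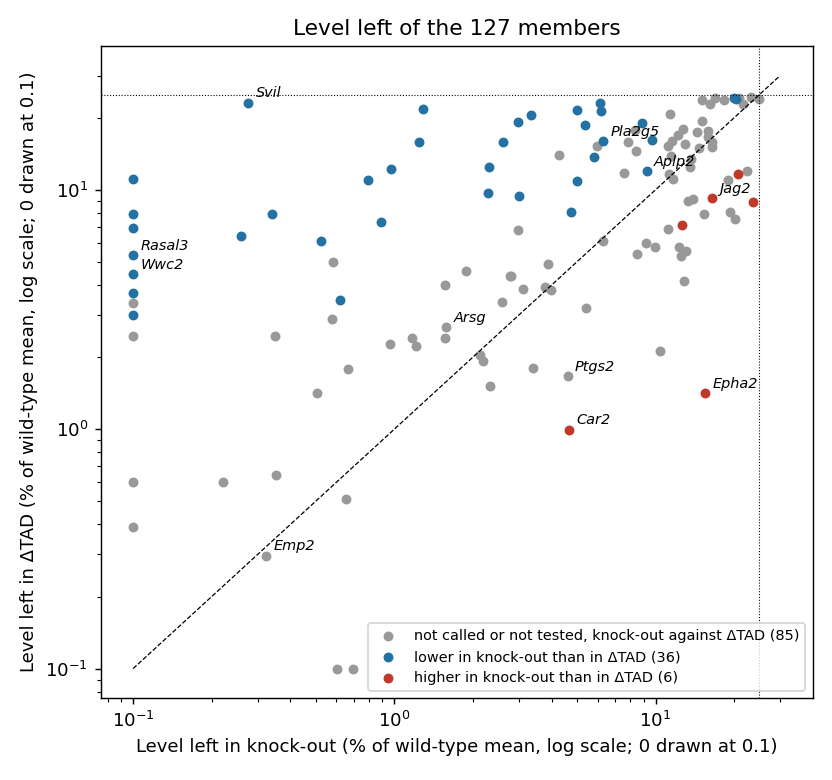
Level left in knock-out (x axis) and in ΔTAD macrophages (y axis), each as percent of the wild-type mean on a log scale, 1 point per member, with levels of 0 drawn at 0.1. The dashed line marks equal levels and the dotted lines the 25% limit of the rule: 36 members called lower in knock-out lie above the diagonal, and the 6 called higher, with Epha2 and Car2 farthest, lie below it.

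The deepest losses were shared unequally. In knock-out macrophages 11 members had no count in any library and 44 had at most 3 counts in every library. In ΔTAD macrophages 2 members, Qpct and Slc4a5, had no count and 23 had at most 3 counts in every library. At most 3 counts in every edited library were found for 17 members, among them Emp2, Elovl4, Alpl, Gm47015, Tbc1d9, Rph3al, Qpct, Hspb8, Gm36936, Kbtbd6, Slc4a5, Nck2, Adam3, Slc35g3, Cyp4f18 and Scin. Emp2 was the most abundant of these in wild-type macrophages, and the next, Elovl4, had a wild-type mean of 5.81 CPM. Gm36936 overlaps Nedd4, which is more abundant. A further 13 members were at or under the floor in knock-out and above it in every ΔTAD library.

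Members were found on every chromosome except Y, from 13 on chromosome 2 to 1 on chromosome 15. Of the 127, 25 lie within 1 Mb of another member, in 11 clusters. Besides the TREM block and the pair Ptgs2 and Ptgs2os2, these include Gm26581 with Gm10825, Arsg with Abca5, Dock9 with Zic5, Plcb2 with Gm14137 and Tyro3, Tinagl1 with Serinc2, Slc4a5 with Actg2, Gm35037 with Tarm1, and Fcho1 with Cyp4f18. The closest of these pairs was Gm35037 and Tarm1, 51.3 kb apart.

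The nearest tested gene on each side of each member, 242 genes in all that are not members, was read next, since position was not used by the rule. Of these 31.8% were called lower in knock-out and 31.0% lower in ΔTAD macrophages, beside 21.7% and 22.7% of all tested non-members. A log2 fold change of −1 or below in both genotypes was found in 22 of the 242 (9.09%) and in 2.20% of all non-members. The median of the neighbours was −0.09 for knock-out and −0.04 for ΔTAD. Among the 22 were Dlx2 beside Itga6 (−5.19 and −5.25), Tcim beside Adam3 (−4.75 in knock-out, no count in ΔTAD) and Vash1 beside Angel1 (−1.42 and −3.92). These are weakly expressed genes, with wild-type means of 0.971, 0.696 and 2.02 CPM. The edited means of Dlx2 and Tcim, at most 0.0207 CPM, and the ΔTAD mean of Vash1, 0.112 CPM, were under the floor, so the sizes of these changes are uncertain. An adjacent gene that met the rule is itself a member and is not counted here, so the size of the loss in these neighbours is limited by the choice.

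The limits of the rule cut through a continuum. Just above the wild-type limit were Tinagl1 at 2.01, Fam69b at 2.04 and Scin at 2.05 CPM, and just under it Insrr at 1.93, Gm7265 at 1.92 and 9330102E08Rik at 1.89 CPM. On the knock-out side Dock9 (24.8% left), E230001N04Rik (23.7%) and Il18rap (23.3%) were inside and Pecam1 (25.1%), Eml5 (26.4%) and C030034L19Rik (27.6%) outside. On the ΔTAD side Il18rap (24.5%), Ifi213 (24.2%) and Serinc2 (24.2%) were inside and Slc6a13 (25.3%), Lemd3 (25.3%) and Gfi1 (25.6%) outside.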

How the data were processed

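Total RNA of 9 RAW264.7 libraries (3 per genotype) was depleted of ribosomal RNA and sequenced. The authors used Trimmomatic (0.36 in the submitters' processing notes) for trimming, HISAT2 for alignment to GRCm38 and HTSeq for counting by Ensembl gene. They deposited raw counts per gene, 1 list per library with 5 tally lines, which were left out here. Genotypes and replicate numbers were taken from the sample labels.

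Members were found on CPM from library totals. Counts were tested with edgeR 4.0.16 (quasi-likelihood F test, TMM scaling, filterByExpr with a minimum count of 10 and a minimum total of 15) in R 4.3.3, with 1 model of 3 genotypes over 9 libraries and Benjamini-Hochberg adjustment over 14312 genes. Calls were made at an adjusted p-value under 0.01, as in the study. The steps were tested on simulated data: of 100 genes changed between knock-out and ΔTAD among 14312, 93% were called. The differences set were larger than those of Aplp2, Car12 and Jag2. They were placed in genes above a minimum wild-type count, with the same spread for all genes. This share therefore does not measure the power for members near the floor or with small differences. Positions, classes and overlaps came from GENCODE for GRCm38, promoters from RefSeq. Bounds of folds used 3 counts per library in the lower group.

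The members and gene lists were chosen with earlier results of these data known. Named were the 20 members with the highest wild-type CPM, the 5 largest and 5 smallest fold changes among calls of knock-out against ΔTAD, up to 4 members per list, members within 1 Mb of another, the 3 genes on either side of each limit, up to 6 members with TTGCNNAA and Cebpd. Some of these are not reported here. Other genes were named after their values were seen. The calls were repeated with limma-voom (limma 3.58.1), with DESeq2 1.42.0 and under other scalings, filters and limits of the rule, models of 2 genotypes, a replicate block and leaving out each library.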

Additional observations from a re-analysis of the deposited data

How the results depend on the processing

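The set held 127 genes, of which 116 remained when CPM was taken on TMM-scaled library sizes. It held 67 with a wild-type minimum of 5 CPM, 67 at a limit of 12.5% of wild-type in both genotypes and 305 at 50%. When 1 library was left out it held between 123 and 128. At most 10 counts in every edited library were found in 46 members. Knock-out against ΔTAD gave 36 members lower and 6 higher. The lower count was 23 with a filter of 10 counts in at least 6 libraries, which left 65 members in the test, 21 with only the 2 genotypes compared, which left 57, and 26 to 36 when 1 library was left out. The higher count was 10 at an adjusted p under 0.05 and 5 to 7 when 1 library was left out. Against wild-type macrophages the 126 calls became 65 in each genotype with the 6-library filter, which tested 65 members, and 125 to 126 when 1 library was left out. With the replicate number as a block the calls were 35 lower, 6 higher and 126 in each genotype against wild-type. Same-numbered libraries correlated between −0.0717 and 0.0200 in their deviations from the genotype means, and libraries of unlike number between −0.0547 and 0.0810. No pairing by number was seen, though with 3 libraries per genotype this cannot show that the samples were handled apart. The share of promoters at a CpG ratio of 0.6 was 5.10 percentage points above all promoters and −33.1 against those of tested genes, and TATAAA moved from −4.30 to 3.19. Wwc2, Rasal3, Zfp11, Svil, Sept3, Jag2, Zfyve9, E230001N04Rik, Car2 and Epha2 were refitted with DESeq2, library size alone, the replicate block and each library left out, and none of them changed direction between knock-out and ΔTAD. Counting depth limits members near 3 counts.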
